A study of Rattus norvegicus with 8 samples.

Results

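The collagen chain genes are the family of genes, named Col with a type number and a chain number, that encode the chains of the collagens. Membership was set by name: every probe of the arrays whose gene name in the file was of this form was taken, which gave 54 probes for 39 genes. The choice of this family was made with earlier results of these data known. A gene counted as measured if 4 or more of the 8 arrays had a probe of it well above background, and its brightest such probe stood for it. This left 29 of the 39 genes, among 22589 genes tested in all. Each of the 29 was well above background on all 8 arrays.

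Total RNA was profiled on 1-colour Agilent arrays from hippocampal neurons of Wistar rats aged postnatal day 0 to 1, grown in Neurobasal A with B27. Neurons of both groups were infected at 3 days in vitro with lentiviral shRNA vectors, at a multiplicity of infection of 6, and were taken 7 days later, at 10 days in vitro. The 4 Sirt6 shRNA samples carried an shRNA against the deacetylase Sirt6, and the 4 scrambled shRNA samples a scrambled control shRNA. The study asked what SIRT6 does in the shaping of neurons; 1 shRNA against Sirt6 was used. Separate cultures or animals are not stated for the samples of a group, and the p-values may therefore reflect technical spread only.

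A collagen molecule is built from chains that wind around each other into a triple helix, in which a glycine holds a fixed place in each short repeat. Fibrillar collagens assemble into the fibres of connective tissue, type IV collagens form the network of basement membranes, type VI collagens form beaded filaments, and other classes sit on fibres or span the cell membrane. In brain, most fibrillar collagen is made by cells of the meninges and vessel walls, while some membrane and fibril-associated collagens are made by neurons.

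Sirt6 itself was at 0.55, 0.58, 0.50 and 0.46 in Sirt6 shRNA arrays, against 2.10, 2.04, 2.02 and 2.06 in scrambled shRNA arrays, as log2 level. A log2 level is the log2 of a probe's processed signal minus the 75th percentile of the same array, so that levels of 1 probe can be compared across arrays but those of different probes cannot. The Sirt6 difference was -1.53 ± 0.04 (SE) with an adjusted p of 5.55e-06. Of the non-control probes, 60.4% to 65.3% were well above background on an array. All arrays lay on 1 slide, with the Sirt6 shRNA samples in row 2 and the scrambled shRNA samples in row 1; the slide's rows and the groups cannot be told apart.

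Collagen genes changed in both directions and by small amounts. Of the 29 measured, 15 were called at an adjusted p under 0.05 (51.7%, against 30.4% of all genes tested). The 10 that rose with Sirt6 shRNA were Col22a1, Col20a1, Col1a2, Col3a1, Col5a2, Col27a1, Col5a1, Col1a1, Col5a3 and Col4a6, where 15.6% of all genes rose. The 5 that fell were Col23a1, Col25a1, Col6a2, Col11a1 and Col26a1, where 14.8% of all genes fell, a share near that of the collagens. The median size of a called collagen difference was 0.29 in log2, against 0.30 over all called genes. None of the 15 reached 1.5-fold, which 4.43% of all genes tested did while being called. The 4 arrays of each group lay entirely apart for 13 collagen genes, 8 higher and 5 lower with Sirt6 shRNA, where 33.4% of all genes did so (17.4% higher and 16.1% lower). The median difference over the 29 genes was 0.10, against 0.02 over all genes, but it was 0.030 without scrambled shRNA replicate 1, 0.044 without Sirt6 shRNA replicate 3, 0.056 without scrambled shRNA replicate 3 and 0.011 with normexp background correction. In the same order, the median over all genes was 0.0259, 0.0236, 0.0141 and 0.0001. In bulk RNA, fewer cells of a type and less RNA per cell cannot be told apart.

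The counts depended on single arrays and on scaling. Without Sirt6 shRNA replicate 3, or without scrambled shRNA replicate 4, 6 collagens were called higher. Without Sirt6 shRNA replicate 1, or without scrambled shRNA replicate 1, 3 were called lower. Centring each array on its median left 5 higher and 5 lower, and scaling on the spiked-in control RNA left 6 higher and 1 lower. Median centring ended the calls of Col1a1, Col4a6, Col5a1, Col5a3 and Col27a1. Spike-in scaling ended those of Col1a1, Col4a6, Col5a1, Col5a3, Col6a2, Col11a1, Col25a1 and Col26a1, and testing with no filter on dim probes those of Col1a1, Col4a6, Col5a3, Col11a1, Col26a1 and Col27a1. The share called over all genes, 30.4% in the main fit, was also smaller in these settings. It was 23.6% without Sirt6 shRNA replicate 3 and 24.9% without scrambled shRNA replicate 4. Without Sirt6 shRNA replicate 1 it was 24.1%, and without scrambled shRNA replicate 1 it was 25.8%. Median centring gave 25.1%, spike-in scaling 14.5% and no filter on dim probes 14.5%. None of the 15 called collagens changed sign under any of the 22 alternatives.

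**Figure D1:**
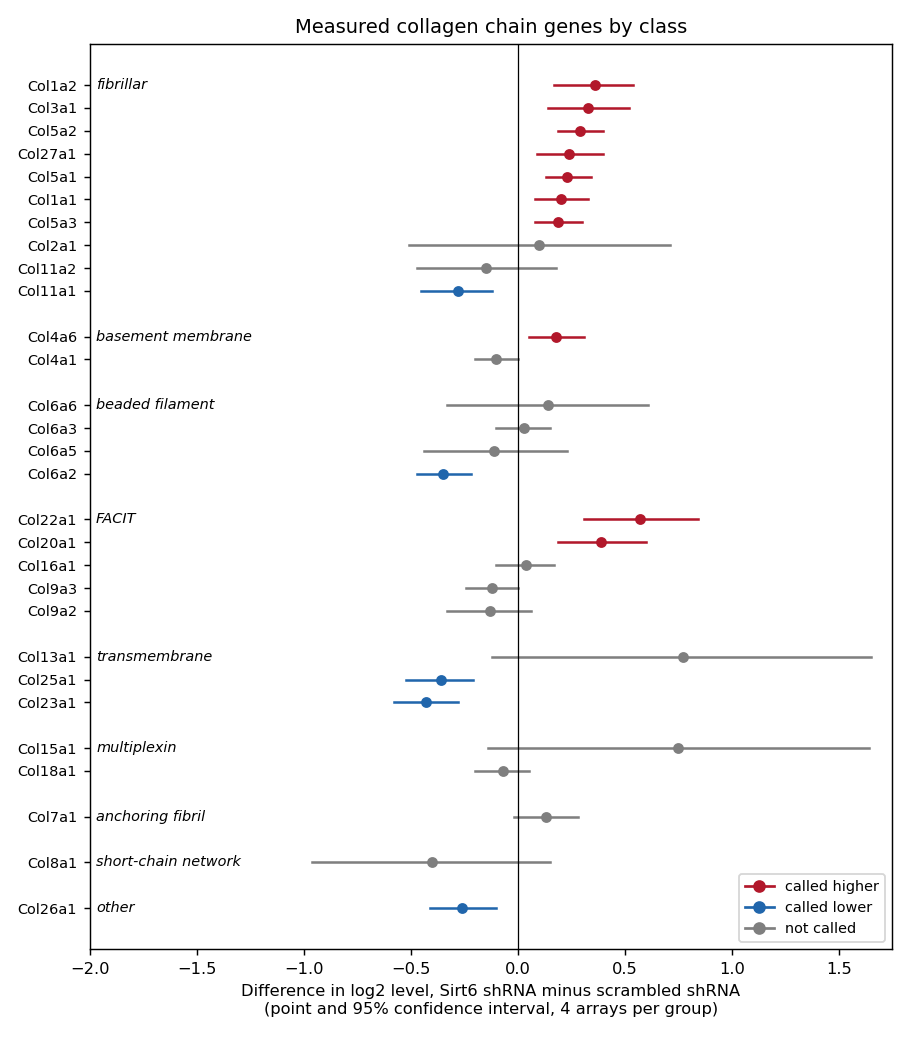
Difference in log2 level, Sirt6 shRNA minus scrambled shRNA, for the 29 measured collagen genes, grouped by class, with the 95% confidence interval of each (4 arrays per group). Red points were called higher, blue points lower and grey points were not called; among fibrillar genes 7 were called higher and 1 lower, and the widest intervals belong to Col13a1 and Col15a1.

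Of the 10 collagens that rose, 7 were fibrillar. Of 11 fibrillar genes, 10 were measured (Col24a1 was not), 7 rose and 1 fell (80% called, against 30.4% of all genes), and their median difference was 0.22. The rising genes encode both chains of type I collagen, the bulk fibre of connective tissue, the chain of type III collagen, which accompanies it in soft tissue and vessel walls, the 3 chains of type V collagen, which start and thin those fibres, and type XXVII collagen. Calls were fewer with median centring, where 3 of the 7 (Col1a2, Col3a1 and Col5a2) held, and with spike-in scaling, where these and Col27a1 held. All 7 differences stayed above 0. Higher calls over all genes were fewer too, 1999 with median centring and 2092 with spike-in scaling, against 3523 in the main fit. With quantile normalization all 7 calls held.

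Col1a2, the second chain of type I collagen, was at 3.36, 3.52, 3.34 and 3.51 in Sirt6 shRNA arrays, against 3.22, 3.15, 3.05 and 2.89 in scrambled shRNA arrays. The groups did not overlap, and the scrambled shRNA arrays spread more widely. The difference was 0.36 ± 0.08 (SE; 1.28-fold; adjusted p = 0.0128), and the call held under all 22 alternatives. The probe lies on chr4:29428206-29428265 of build rn4, the rat genome version for which the array was drawn up. Exon and UTR positions of probes were not analysed here.

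Col1a1, the main chain of type I collagen, was at 2.41, 2.54, 2.49 and 2.62 in Sirt6 shRNA arrays, against 2.37, 2.31, 2.35 and 2.23 in scrambled shRNA arrays (probe at chr10:83638177-83638236, rn4). The gap between the groups was narrow, with the lowest Sirt6 shRNA array at 2.41 and the highest scrambled shRNA array at 2.37. The difference was 0.20 ± 0.056 (SE; 1.15-fold; adjusted p = 0.0271). The call was lost without Sirt6 shRNA replicate 2, 3 or 4 or scrambled shRNA replicate 2 or 4, with adjusted p up to 0.0668, and with median centring (0.121), spike-in scaling (0.0565) and no filter on dim probes (0.059).

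Col3a1, which forms type III collagen from 3 copies of its chain, was at 1.19, 1.51, 1.33 and 1.51 in Sirt6 shRNA arrays, against 0.99, 1.16, 1.07 and 1.00 in scrambled shRNA arrays. The Sirt6 shRNA arrays were all higher but spread over more than 0.3. The difference was 0.33 ± 0.081 (SE; 1.26-fold; adjusted p = 0.018), and the call held under all 22 alternatives.

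All 3 chains of type V collagen rose. Col5a2 was at 1.83, 1.78, 1.85 and 1.94 in Sirt6 shRNA arrays, against 1.62, 1.55, 1.55 and 1.52 in scrambled shRNA arrays, and was chosen for this listing after its values were seen. Its difference was 0.29 ± 0.046 (SE; adjusted p = 0.00258). Col5a1 differed by 0.23 ± 0.045 (SE; adjusted p = 0.00682) and Col5a3 by 0.19 ± 0.048 (SE; adjusted p = 0.0198), both without overlap. The Col5a3 call was lost without Sirt6 shRNA replicate 1 or 3 or scrambled shRNA replicate 4, with adjusted p up to 0.0552. Against the scrambled shRNA mean of each gene, Sirt6 shRNA replicate 2 was the lowest of its group for all 3 type V chains (0.17 for Col5a1, 0.22 for Col5a2 and 0.07 for Col5a3), while it was the highest for Col1a2 (0.45) and Col3a1 (0.46).

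The remaining fibrillar genes were less uniform. Col27a1 rose by 0.24 ± 0.068 (SE; adjusted p = 0.0299), but its groups overlapped, with Sirt6 shRNA replicate 4 at -1.11 and scrambled shRNA replicate 3 at -1.07, and leaving out any of 6 single arrays (all but Sirt6 shRNA replicate 4 and scrambled shRNA replicate 3) took its adjusted p past 0.05, to at most 0.0753. With normexp its difference was 0.14. Col11a1, a chain of the type XI collagen that seeds cartilage fibres, fell by 0.28 on the log2 scale (SE 0.072; adjusted p = 0.0207). Its groups did not overlap, but Sirt6 shRNA replicate 2, at -1.13, was close to scrambled shRNA replicate 2, at -1.10, and the call was lost without Sirt6 shRNA replicate 1 or scrambled shRNA replicate 1 or 3, with adjusted p up to 0.0561. Its partner Col11a2 differed by -0.15 (95% interval -0.47 to 0.18) and Col2a1, the cartilage collagen, by 0.10 (-0.51 to 0.71), neither called. The Col2a1 sign turned under 3 alternatives.

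The sequence before the start of Col1a2 is shown because this gene had the largest difference of the fibrillar class. It is the stretch from 250 to 151 bases before the start in RefSeq, at chr4:33518307-33518406 of build GRCr8 on the plus strand, with the motifs TATAAA and CCAAT (here on the opposite strand, as ATTGG) in capitals.
Col1a2 upstream: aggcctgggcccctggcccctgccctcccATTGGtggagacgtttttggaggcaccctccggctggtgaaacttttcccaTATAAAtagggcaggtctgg
Among the 22 measured collagens with a RefSeq window of 250 bases before the start, CCAAT was found on either strand in 6 (34% of all windows held it), TATAAA in 2 (12.9% of all windows) and GGGCGG, the core of the GC box, in 14 (30.5% of all windows). GGGCGG stood in 5 of the 7 such windows of genes called higher and in 2 of the 3 of genes called lower. A match is a description of the letters only.

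**Figure D2:**
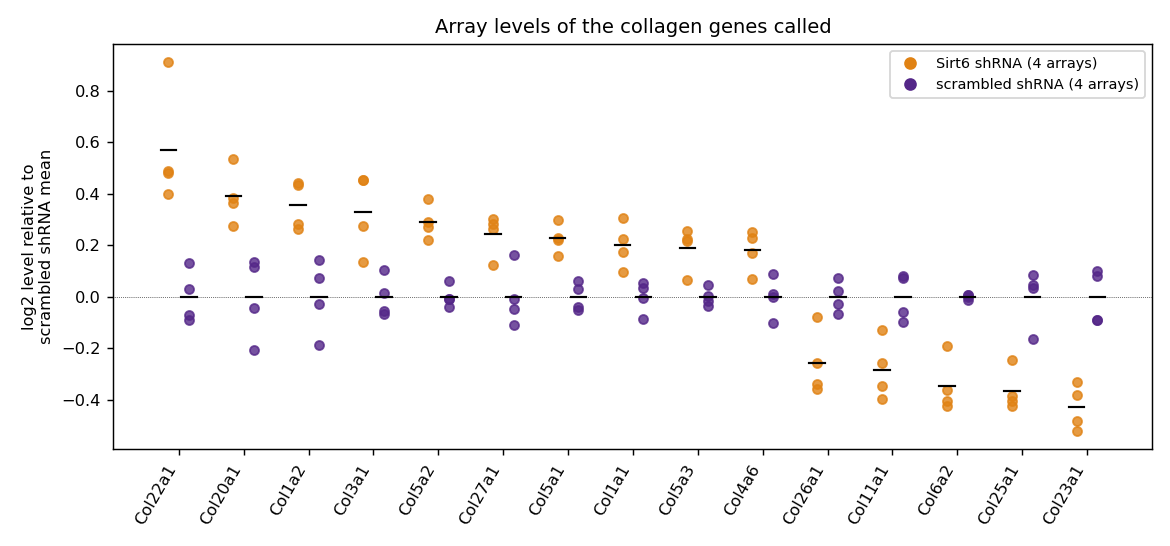
Log2 level of each of the 15 called collagen genes on each array, relative to the scrambled shRNA mean of that gene. Sirt6 shRNA arrays are orange, to the left of the scrambled shRNA arrays in purple, and the short black lines are group means; Sirt6 shRNA replicate 2 stands at 0.91 for Col22a1, above the other 3, and the groups overlap for Col27a1 and Col4a6.

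Of the 2 measured chains of basement membrane collagen, 1 rose and none fell (50% called, against 30.4% of all genes). Col4a1, which with Col4a2 makes the type IV collagen found in nearly every basement membrane, was at 2.62, 2.72, 2.65 and 2.77 in Sirt6 shRNA arrays, against 2.76, 2.82, 2.81 and 2.77 in scrambled shRNA arrays. The groups overlapped, and the difference of -0.10 ± 0.042 (SE; adjusted p = 0.119) was not called. Col4a6, a chain of a more restricted type IV network, rose by 0.18 ± 0.057 (SE; 1.13-fold; adjusted p = 0.0451) with overlapping groups. The Col4a6 call rested on the whole set: it was lost without any of 6 single arrays (all but Sirt6 shRNA replicate 4 and scrambled shRNA replicate 1), with adjusted p up to 0.111, and with median centring (0.126). Col4a3 and Col4a4 were not measured.

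The name rule left out Col4a2, Col4a5, Col6a1, Col12a1 and Col28a1, whose probes carry a transcript identifier as gene name and name the collagen only in their description. For 4 of these 5 genes a probe was kept, and their values are given beside the family without being counted in it. Col4a2 was at -1.52, -1.38, -1.34 and -1.35 in Sirt6 shRNA arrays, against -1.84, -1.77, -1.87 and -1.84 in scrambled shRNA arrays. The groups lay well apart, by more than the range within either. It rose by 0.43 ± 0.05 (SE; 1.35-fold; adjusted p = 5.88e-04). Col4a5 differed by 0.08 (95% interval -0.12 to 0.28) and was not called.

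Col4a1 and Col4a2 lie head to head, transcribed away from each other from a shared start region, which is shown because the probes of the pair differed in response. These are the 76 bases between their starts in RefSeq, at chr16:84885521-84885596 of build GRCr8, plus strand, with GGGCGG, which is on the opposite strand, in capitals.
Col4a1 and Col4a2 interval: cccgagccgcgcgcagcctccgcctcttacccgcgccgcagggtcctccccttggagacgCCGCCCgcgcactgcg
Neither CCAAT nor TATAAA was found in these bases.

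Chains that join in 1 molecule were set against each other within each array, as the log2 ratio of the 2 probes, for 7 pairs. The ratio of Col4a2 to Col4a1 moved most, by 0.53 ± 0.039 (SE), with Sirt6 shRNA arrays at 0.21 to 0.36 and scrambled shRNA arrays at -0.32 to -0.24 around the 8-array mean. The ratio of Col6a3 to Col6a2 differed by 0.37 ± 0.072 (SE) and that of Col6a2 to Col6a1 by -0.11 ± 0.038 (SE), in both cases with groups that did not overlap. Each of these 3 pairs had p = 0.0286 in a two-sided exact permutation test over the 70 splits of the arrays, the smallest p reachable with 4 arrays a group, and 0.0667 after Benjamini-Hochberg adjustment over the 7 pairs. No pair passed 0.05 after adjustment, but a pair alone at the smallest p could not have passed, whatever its size. The 95% intervals were 0.43 to 0.63 for Col4a2 to Col4a1, 0.20 to 0.55 for Col6a3 to Col6a2 and -0.20 to -0.02 for Col6a2 to Col6a1. The type I pair, Col1a2 to Col1a1, changed by 0.15 ± 0.056 (SE; exact p = 0.0571, adjusted 0.1). The type V pair, Col5a2 to Col5a1, changed by 0.06 (95% interval -0.04 to 0.16) and the type IX pair, Col9a3 to Col9a2, by 0.02 (-0.22 to 0.26). The type XI pair, Col11a2 to Col11a1, changed by 0.14 (-0.15 to 0.43). A ratio shows unequal change of 2 probes and not which of them moved. The 2 type VI ratios share the Col6a2 probe, itself called lower, so they are not separate results.

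**Figure D3:**
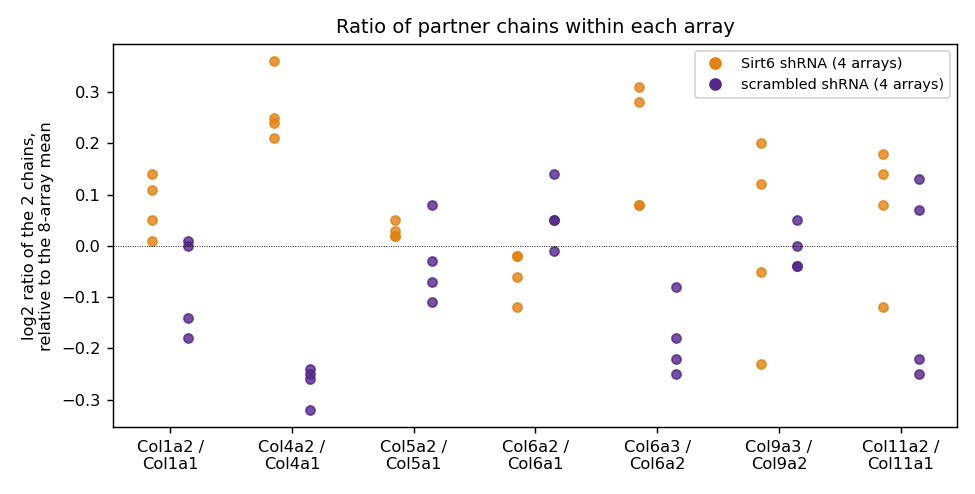
Log2 ratio of the probes of 2 partner chains within each array, relative to the 8-array mean of that ratio, with Sirt6 shRNA arrays in orange to the left of scrambled shRNA arrays in purple. For Col4a2 over Col4a1 the Sirt6 shRNA arrays lie at 0.21 to 0.36 and the scrambled shRNA arrays at -0.32 to -0.24, while for Col9a3 over Col9a2 the groups overlap.

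Of the 4 measured chains of type VI collagen, the beaded filament of the space around cells, 1 fell. That is 25% called, below the 30.4% of all genes, and the median difference of the class was -0.04. Col6a2 was at 2.78, 2.99, 2.76 and 2.82 in Sirt6 shRNA arrays, against 3.19, 3.19, 3.17 and 3.18 in scrambled shRNA arrays, a gene listed after its values were seen. The scrambled shRNA arrays were nearly identical and the Sirt6 shRNA arrays all lower. The difference was -0.35 ± 0.054 (SE; 0.787-fold; adjusted p = 0.00253), lost only with spike-in scaling (adjusted p = 0.0505). A second Col6a2 probe differed by -0.64. Its partner Col6a1, outside the name rule, was at -0.82, -0.58, -0.76 and -0.79 in Sirt6 shRNA arrays, against -0.58, -0.43, -0.52 and -0.50 in scrambled shRNA arrays, and it fell by 0.23 on the log2 scale (SE 0.062; adjusted p = 0.0245). Its groups did not overlap but came together at -0.58. The third chain of the same molecule, Col6a3, differed by 0.03 (95% interval -0.10 to 0.15). Col6a5 and Col6a6, chains that can take the place of Col6a3, differed by -0.11 (-0.44 to 0.23) and 0.14 (-0.33 to 0.61) and were not called.

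The fibril-associated collagens with interrupted triple helices held the largest called rise. Col22a1, known from tissue junctions such as that of muscle and tendon, was at -2.62, -2.20, -2.71 and -2.63 in Sirt6 shRNA arrays, against -3.08, -2.98, -3.18 and -3.20 in scrambled shRNA arrays. Every Sirt6 shRNA array was higher, with replicate 2 apart from the other 3. The difference was 0.57 ± 0.11 (SE; 1.49-fold; adjusted p = 0.00737), and the call held under all 22 alternatives, although the difference was 0.22 with normexp background correction and an offset of 50. Col20a1 rose by 0.39 ± 0.088 (SE; 1.31-fold; adjusted p = 0.0126), also under all 22. Col16a1, Col9a2 and Col9a3, of which the last belong to the type IX collagen that coats cartilage fibres, differed by 0.04 (95% interval -0.10 to 0.17), -0.13 (-0.33 to 0.06) and -0.12 (-0.24 to 0.00) and were not called.

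Col12a1, a fibril-associated collagen of tendon and other dense tissue that is outside the name rule, was at -1.12, -1.15, -1.18 and -1.15 in Sirt6 shRNA arrays, against -1.88, -1.90, -1.77 and -1.68 in scrambled shRNA arrays, values seen before it was chosen for listing. The Sirt6 shRNA arrays were tightly grouped and far above the others. It rose by 0.66 ± 0.053 (SE; 1.58-fold; adjusted p = 1.23e-04). A dimmer Col12a1 probe differed by 0.46 ± 0.15 (SE), with an adjusted p of 0.0544 when all kept probes were tested.

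Probes of Col22a1 and Col4a6 that lie in the repeat coding for the helix are shown because they make the glycine pattern visible and because each can be set beside the brightest probe of its gene. Both carry the collagen name in their description only and so are not among the 54 probes of the family. Capitals mark GGN codons, which code for glycine, spaced 9 bases apart; the sequences are those of the array design, with rn4 positions chr7:109510107-109510166 (minus strand) for Col22a1 and chrX:37482127-37482186 (plus strand) for Col4a6.
Col22a1, second probe: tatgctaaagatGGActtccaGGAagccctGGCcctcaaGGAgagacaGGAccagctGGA
Col4a6, second probe: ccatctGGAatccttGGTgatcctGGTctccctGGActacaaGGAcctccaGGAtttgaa
At least 4 GGN codons in 1 frame, at any multiple of 9 bases from each other, were found in 136 of the 45598 non-control probes (0.298%) and in 4 of the 54 collagen probes (7.41%), of which 1 was among the 29 brightest, that of Col8a1, where the codons do not follow each other without a break. The letters AATAAA, a polyadenylation signal found near the end of transcripts, were counted on the probe's own strand. They were in 9.04% of all probes and in 11 of the 54 collagen probes (20.4%). Of the 29 brightest collagen probes, 10 held them.

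Probes of 1 gene mostly gave the same direction. For 8 genes another kept probe carried the collagen name, and all 8 had the sign of the brightest probe. These second probes gave 0.29 for Col1a1, 0.27 for Col5a2, 0.21 for Col27a1, 0.12 for Col5a1, 0.16 for Col6a3, -0.20 for Col26a1, -0.29 for Col23a1 and -0.64 for Col6a2. That of Col23a1 was well above background on only 4 of the 8 arrays (95% interval -0.89 to 0.31) and is not taken as support. The intervals for Col27a1 (-0.01 to 0.42) and Col6a3 (-0.10 to 0.43) also held 0. Second probes of Col5a1 and Col26a1 were not called when all kept probes were tested (adjusted p = 0.0628 and 0.0609), and their groups overlapped. The second Col5a2 probe overlaps the brightest in position, so it is not a separate measure. The helix probe of Col22a1 was well above background on only 5 of the 8 arrays, and its measured difference of 0.54 is therefore not set beside the 0.57 of the brightest probe as support. The helix probe of Col4a6 gave -0.02 (95% interval -0.21 to 0.18), where the brightest probe was called at 0.18. For Col20a1, called at 0.39, another 2 probes named in their description gave 0.32 (-0.04 to 0.69) and 0.01 (-0.14 to 0.15), so the Col20a1 and Col4a6 calls differ between probes.

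**Figure D4:**
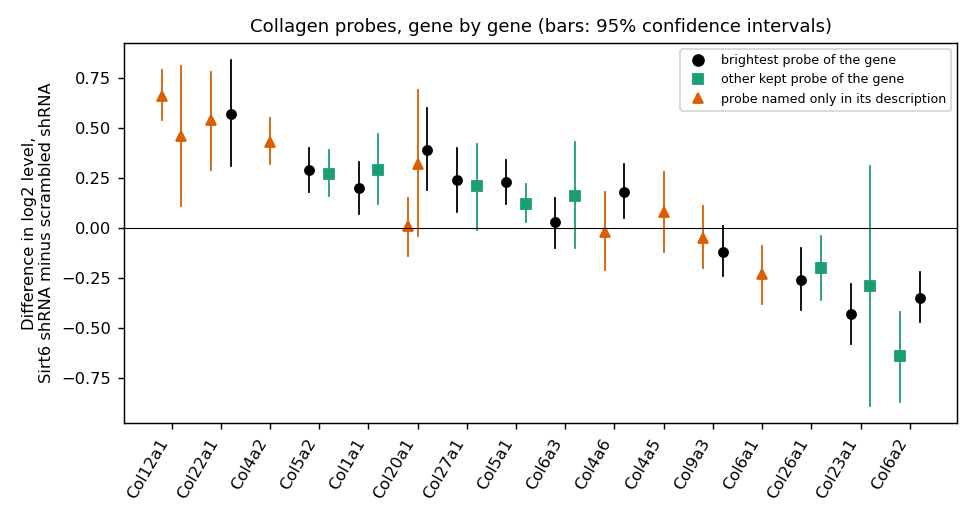
Difference in log2 level, Sirt6 shRNA minus scrambled shRNA, for each kept probe of the collagen genes with more than 1 kept probe or with a probe named only in its description; bars are 95% confidence intervals (4 arrays per group). Black points are the brightest probes, green squares other probes and orange triangles probes named only in their description, and the triangles of Col20a1 (0.01 and 0.32) and Col4a6 (-0.02) lie below the black points of those genes (0.39 and 0.18).

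Transmembrane collagens, which are shed from the cell surface, supplied 2 of the 5 falls (66.7% of the 3 measured called, against 30.4% of all genes). Col23a1 was at -3.41, -3.51, -3.55 and -3.36 in Sirt6 shRNA arrays, against -3.12, -2.93, -2.95 and -3.12 in scrambled shRNA arrays. Col25a1, a neuronal collagen also found in amyloid plaques, was at -0.80, -0.82, -0.64 and -0.78 in Sirt6 shRNA arrays, against -0.31, -0.56, -0.35 and -0.36 in scrambled shRNA arrays. Neither gene's groups overlapped, and both were listed after their values were seen. Col23a1 fell by 0.43 on the log2 scale (SE 0.066; 0.743-fold; adjusted p = 0.00232), a call lost only when the gene's probes were averaged (adjusted p = 0.0806), and differed by -0.18 with normexp. Col25a1 fell by 0.36 on the log2 scale (SE 0.067; 0.777-fold; adjusted p = 0.00505), a call lost only with spike-in scaling (adjusted p = 0.0895). The array's design gives no genome position for the Col25a1 probe.

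The third measured transmembrane collagen, Col13a1, of the neuromuscular junction, was at -3.10, -2.72, -2.89 and -1.21 in Sirt6 shRNA arrays, against -3.47, -3.22, -3.08 and -3.20 in scrambled shRNA arrays. A single Sirt6 shRNA array, replicate 4, stood far above the rest; this gene and Col15a1 were listed by array after their values were seen. The difference of 0.77 ± 0.38 (SE; 95% interval -0.12 to 1.65; adjusted p = 0.168) was not called. Col15a1, a vessel-associated multiplexin, showed the same with another array, at -4.01, -3.21, -1.99 and -3.49 in Sirt6 shRNA arrays, against -4.06, -3.62, -3.99 and -4.00 in scrambled shRNA arrays, where replicate 3 was high. Its difference of 0.75 ± 0.39 (SE; adjusted p = 0.182) was not called either. Without that single array the differences were 0.34 for Col13a1 (adjusted p = 0.0754) and 0.35 for Col15a1 (adjusted p = 0.243).

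Col26a1, a secreted protein with short collagen repeats, fell by 0.26 on the log2 scale (SE 0.067; adjusted p = 0.0215), with Sirt6 shRNA arrays at 0.24 to 0.52 and scrambled shRNA arrays at 0.53 to 0.67. The gap between the groups was small, and the call was lost without Sirt6 shRNA replicate 1 or 3 or scrambled shRNA replicate 1 or 2 (adjusted p up to 0.0589) and with spike-in scaling (0.274). Col18a1, the precursor of endostatin, differed by -0.07 (95% interval -0.20 to 0.05), Col7a1, of anchoring fibrils, by 0.13 (-0.02 to 0.28) and Col8a1, a short-chain network collagen, by -0.40 (-0.96 to 0.15), none of them called. The 10 genes not measured were Col4a3, Col4a4, Col6a4, Col8a2, Col9a1, Col10a1, Col14a1, Col17a1, Col19a1 and Col24a1.

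Genes that fold, cut, bind and degrade collagen were compared in the same fit, in which 30.4% of all genes were called, 15.6% higher and 14.8% lower. Of 24 genes for chain folding and modification, 3 rose and 8 fell (45.8% called, median difference -0.09). Crtap, a helper of prolyl hydroxylation, Plod1, a lysyl hydroxylase, and Colgalt2, which adds galactose to hydroxylysine, differed by -0.45, -0.45 and -0.42 in log2 (adjusted p = 0.00916, 1.09e-04 and 0.00109), while the lysyl hydroxylase Plod2 rose by 0.40 (adjusted p = 6.97e-04). Of 14 measured genes for procollagen processing and cross-linking, 1 rose and 2 fell (21.4% called, below the share over all genes, median -0.13). Tgm2, a cross-linking transglutaminase, fell by 0.89 (adjusted p = 6.40e-04), and Bmp1, which cuts off the C-terminal propeptide, by 0.42 (adjusted p = 7.62e-04). Furin, a convertase that activates proteases of this kind, rose by 0.30 (adjusted p = 0.00426).

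Collagen-degrading proteases and their inhibitors fell in 7 of 12 measured genes and rose in 1 (66.7% called, median -0.25). Mmp14, a membrane-bound collagenase, was at 3.98 ± 0.08 in Sirt6 shRNA arrays and 4.57 ± 0.06 in scrambled shRNA arrays (SD, n = 4 each), a fall of 0.59 by limma (adjusted p = 1.84e-04). The stromelysin Mmp3 fell by 0.79 (adjusted p = 0.00384), and was well above background on 3 of 4 Sirt6 shRNA arrays. Of the inhibitors of these enzymes, Timp1 was at -0.44 (adjusted p = 0.00132), Timp2 at -0.38 (adjusted p = 0.00231) and Timp4 at -0.38 (adjusted p = 0.00556). Timp3, the riser of the list, was at 0.34 (adjusted p = 0.0022), and Reck, at 0.17, was not called. Timp2, Timp3 and Reck were named after their values were seen. Of 19 genes for TGF-beta ligands, receptors and Smads, a pathway known to induce collagen genes, 1 rose and 6 fell (36.8% called, against 30.4% of all genes, median -0.16), with Tgfb1 at -0.64 (adjusted p = 0.0176), its groups overlapping, Tgfb2 at -0.37 (adjusted p = 0.00342), Ltbp3, which holds latent TGF-beta, at -0.30 (adjusted p = 0.00654) and the receptor Tgfbr1 at 0.35 (adjusted p = 0.00202).

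Basement membrane partners of type IV collagen rose in 7 of 18 measured genes and fell in 2 (50% called, median 0.12). The laminin chain Lamc3 rose by 0.66 (adjusted p = 1.35e-04), Smoc1 by 0.47 (adjusted p = 1.75e-04) and Tinagl1 by 0.47 (adjusted p = 0.0131), while Fras1 fell by 0.68 (adjusted p = 0.00985). Of 9 measured collagen receptors, 1 rose and 2 fell (33.3% called, near the 30.4% of all genes, median -0.05). Of the collagen-binding integrin alpha chains, Itga2 rose by 1.09 (2.12-fold; adjusted p = 1.75e-04), Itga1 fell by 0.56 (adjusted p = 4.47e-04), Itga11 was not called (adjusted p = 0.997) and Itga10 was not kept. Cd44, which also binds collagen, fell by 0.18 (adjusted p = 0.0413).

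Several of these counts depended on scaling or on single arrays, and so did the calls over all genes. Spike-in scaling gave 2092 genes higher and 1176 lower in all, against 3523 and 3350 in the main fit. Median centring gave 1999 higher and 3681 lower. The share of all genes called was 32.9% with normexp, 14.5% with no filter on dim probes and 23.5% to 29.2% without single arrays, against 30.4%. With spike-in scaling the lower calls were 2 for folding, 3 for proteases and inhibitors, 1 for TGF-beta and 1 for receptors, and the higher calls were 1 for folding and 4 for basement membrane partners, which also had 4 with median centring. The lower calls for procollagen processing were 5 with normexp background correction and 4 without Sirt6 shRNA replicate 2, and those for receptors were 1 without Sirt6 shRNA replicate 1, 3 or 4, without scrambled shRNA replicate 1, 2 or 3, or with no filter on dim probes.

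**Figure D5:**
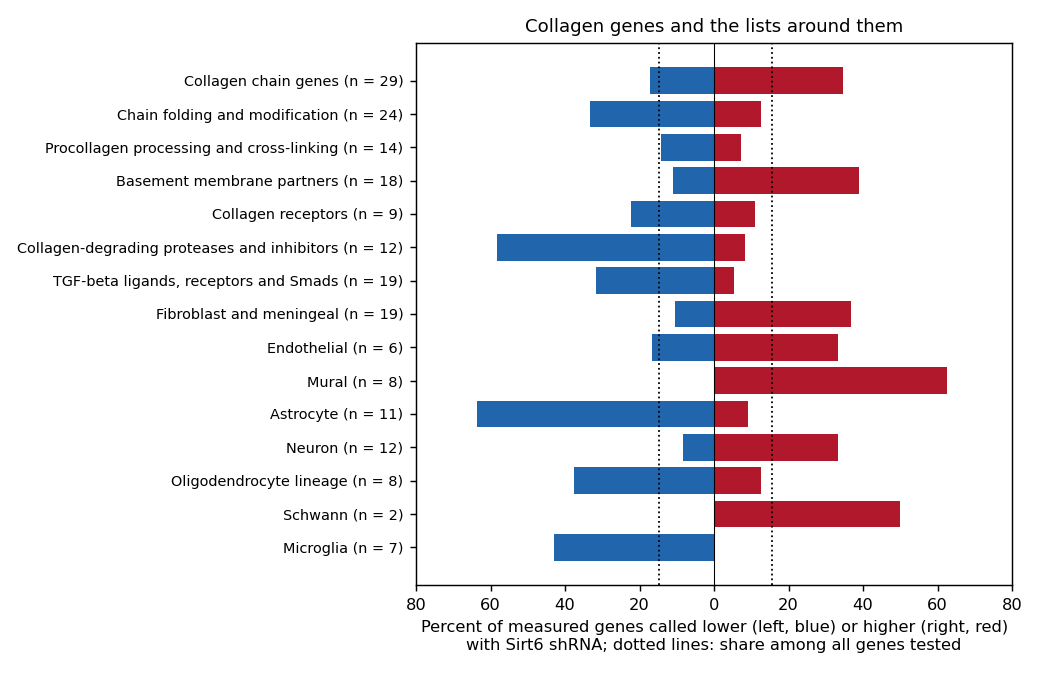
Percent of the measured genes of each list called lower (blue, to the left) or higher (red, to the right) with Sirt6 shRNA; dotted lines mark the share among all genes tested, 14.8% lower and 15.6% higher. Mural markers reach 62.5% higher with none lower, and proteases and inhibitors are mostly lower.

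Markers of cells that make collagen in brain moved with the fibrillar genes in part. Of 8 measured mural cell markers (cells of vessel walls), 5 rose and none fell (62.5% called, against 30.4% of all genes, median 0.47), and their mean was 0.27 to 0.43 in Sirt6 shRNA arrays, against -0.41 to -0.25 in scrambled shRNA arrays, around each gene's 8-array mean. Tagln, a smooth muscle actin-binding protein, rose by 2.14 (adjusted p = 2.61e-05), Abcc9 by 1.18 (adjusted p = 0.0128; well above background on 2 of 4 scrambled shRNA arrays), Myh11 by 0.92 (adjusted p = 2.72e-04) and Acta2 by 0.71 (adjusted p = 5.33e-04), while Rgs5, Des and Kcnj8 were not kept. The remaining mural riser, Cspg4 (0.23), is also counted in the oligodendrocyte lineage list. The mural markers Pdgfrb (-0.07), Anpep (0.08) and Notch3 (0.12) were not called. Of 19 measured fibroblast and meningeal markers, 7 rose and 2 fell (47.4% called, median 0.17). Crabp2 rose by 0.60 (adjusted p = 0.0012) and Slc6a13 by 0.53 (adjusted p = 3.78e-04), while Fmod fell by 1.97 (adjusted p = 7.78e-05) and Mgp fell by 1.72 (adjusted p = 1.97e-05). Lum was not kept, and the mean of this list overlapped between groups (-0.05 to 0.03 in Sirt6 shRNA arrays, -0.03 to 0.05 in scrambled shRNA arrays). The part of these cells in the collagen results was not tested.

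Endothelial markers were measured for 6 of 11 genes, of which 2 rose and 1 fell (50% called, against 30.4% of all genes, median 0.32), with a mean of -0.05 to 0.19 in Sirt6 shRNA arrays and -0.14 to 0.01 in scrambled shRNA arrays. Kdr rose by 0.41 (adjusted p = 0.00615), Slco1a4 by 0.60 (adjusted p = 0.0429) and Egfl7 fell by 0.30 (adjusted p = 0.00619), while Cldn5, Flt1, Tie1, Esam and Emcn were not kept. Of 12 neuronal markers 4 rose and 1 fell (41.7% called, median 0.10), among them Nefm at 0.35 (adjusted p = 0.00193), Tubb3 at 0.32 (adjusted p = 0.0051), Rbfox3 at 0.25 (adjusted p = 0.00992) and Stmn2 at -0.22 (adjusted p = 0.00681). All 12 neuronal markers were measured. Of 11 astrocyte markers 1 rose and 7 fell (72.7% called, median -0.22), among them S100b at -1.42 (adjusted p = 3.06e-05), Gjb6 at 1.15 (adjusted p = 2.45e-04), Gfap at -0.71 (adjusted p = 2.88e-04) and Gja1 at -0.63 (adjusted p = 2.89e-04). Of 8 oligodendrocyte lineage markers 1 rose and 3 fell (50% called, median -0.07), with Mbp at -1.31, Olig1 at -0.37, Cnp at -0.21 and Cspg4 at 0.23 (adjusted p = 1.32e-04, 7.57e-04, 0.0335 and 0.012). Of 7 microglial markers none rose and 3 fell (42.9% called, median -0.57), with Tmem119 at -0.89, P2ry12 at -0.68 and Csf1r at -0.57 (adjusted p = 0.00816, 0.0365 and 0.0458). The groups overlapped for P2ry12 and Csf1r. The mean of the microglial list overlapped too (-0.50 to 0.25 in Sirt6 shRNA arrays, with replicate 2 highest, and 0.07 to 0.44 in scrambled shRNA arrays). Of the 2 measured Schwann cell markers, Gap43, which neurons also express, rose by 0.32 (adjusted p = 7.85e-04) and Pmp22 differed by 0.09 (adjusted p = 0.0748), while Erbb3 was not kept.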

How the data were processed

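The deposited spot intensity values come from Agilent Feature Extraction 11.5.1.1 (the submitters' processing notes name it, and the file headers too), after background subtraction and detrending, with no scaling between arrays. Probe positions are on rn4, per the file headers. A deposited table of the authors' log2 values equals the log2 processed signal minus 1 constant per array (SD of the difference at most 0.0029) and served as an alternative.

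Control and outlier spots were left out and spots of a probe averaged on the log2 scale. The 75th percentile of each array was subtracted, and 28614 of 45598 probes were kept, as well above background on at least 4 arrays. Collagens kept the name in the file; other probes took RefSeq symbols where an accession or symbol matched (16347 kept the file's name). The main test was limma's moderated linear model (version 3.58.1, R 4.3.3), two-sided, with p-values adjusted by Benjamini-Hochberg over 22589 genes, and values for probes outside the name rule come from that fit or, for second probes, from one over all kept probes. The fit was tested on simulated data. The members and lists were chosen with earlier results of these data known. Every collagen is named. From other lists, up to 4 called members of largest difference are named, with a few others beside them. Array levels are printed for Col1a1, Col1a2, Col3a1, Col4a1, Col4a2, Col6a1 and called members at 0.5 or more, and for others where said. Alternatives covered background correction, scaling, the dim-probe filter, the choice of probe, gene names, the test, a replicate block and leaving out each array. The number of arrays limits the precision. A marker gene of the lists is not reported here.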

Additional observations from a re-analysis of the deposited data

Results flagged for a closer look

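In 4 of 58 groups of 4 arrays, 2 groups for each of the 29 genes, a single array lay apart from the others by more than Dixon's 95% critical value for the gap to the nearest array over the whole range, where chance flags about 5% of groups. Col22a1 was at -2.20 in Sirt6 shRNA replicate 2, against -2.71 to -2.62 in the other 3 arrays of its group. Col6a3 was at 1.73 in Sirt6 shRNA replicate 4, with the other 3 at 1.89. Col6a6 was at -4.83 in scrambled shRNA replicate 3, against -4.06 to -3.93 in the others. Col15a1 was at -3.62 in scrambled shRNA replicate 2, against -4.06 to -3.99 in the others.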

How the results depend on the processing

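Over the 22 alternatives, 579 of 638 values for single collagens kept their direction and their side of the threshold, 49 lost a call, 1 gained one (Col9a2, adjusted p = 0.0317 without Sirt6 shRNA replicate 2) and 9 changed sign, and the Sirt6 difference kept both throughout. Leaving out single arrays gave 6 to 9 collagens called higher and 3 to 6 lower, and a median collagen difference of 0.030 to 0.125, against 0.104. In the same fits 23.5% to 29.2% of all genes were called, against 30.4%. The median collagen difference was 0.011 with normexp, 0.057 with quantile normalization, 0.059 with median centring, 0.179 with spike-in scaling, 0.040 with 16 added to each signal and 0.043 with array weights. In the same order, the median over all genes was 0.0001, 0.0188, -0.0245, 0.0949, 0.0126 and 0.0202, against 0.0205 in the main fit. Leaving out single arrays gave 0.0141 to 0.0259 over all genes. Median centring gave 5 collagens and 1999 genes called higher, and spike-in scaling 6 and 2092, with 1 collagen and 1176 genes lower, against 3523 higher and 3350 lower in all, so that the higher share of all calls was 35.2% and 64.0%, against 51.3%. Without the dim-probe filter 3 collagens were called lower, and Col10a1, not above background on any array, was called higher. The signs that changed, none of them of a called gene, were Col2a1 (-0.034 with normexp, -0.008 without Sirt6 shRNA replicate 3, -0.12 without scrambled shRNA replicate 1; -0.12 to 0.26 over single arrays left out), Col6a3 (-0.018) and Col16a1 (-0.009) with median centring, Col16a1 also without Sirt6 shRNA replicate 2 (-0.008 to 0.062 over single arrays), Col18a1 with spike-in scaling (0.001), and Col6a5 (0.001; -0.21 to 0.001 over single arrays) and Col6a6 (-0.070; -0.070 to 0.23) without scrambled shRNA replicate 3. The cause was not tested. With the replicate number as a block, 9 collagens were called higher and 4 lower (Col1a1 and Col11a1 lost their calls, adjusted p = 0.0843 and 0.0527), and 3203 and 3221 genes in all. Deviations of same-numbered arrays correlated at 0.064, 0.160, 0.133 and 0.033, and those of differently numbered arrays at -0.221 to 0.120. Sirt6 shRNA replicate 4 correlated better with scrambled shRNA replicate 1 (0.120) than with its own number. The replicate number was also the slide column in both groups. Whether the number pairs samples cannot be told from these values, and the main fit has no block. Levels of dim probes such as Col15a1 and Col8a1 are limited by signal over background.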
